A study of Mus musculus with 6 samples.

Results

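Sst, Npy, Crhbp, Cort, Nos1 and Chodl are 6 genes that mark somatostatin interneurons or the peptides and partners made with somatostatin. They were taken by symbol from the 32285 genes of the matrices, and all 6 were present in each of the 6 libraries. Each was described by its level per expressing nucleus and by the share of nuclei holding it among Gad-positive nuclei, meaning nuclei with at least 1 unique molecular identifier (UMI, a tag that counts a captured RNA molecule) of Gad1 or Gad2, the genes of the GABA-making enzymes. The genes were selected on genotype values of these same libraries, among them the level of Sst, so their genotype values are given as a description without a test. Frontal lobe nuclei came from Tg-SwDI mice with Trem2 knocked out (KO, SwDI/TKO, 3 mice) and with Trem2 intact (WT, SwDI/TWT, 3 mice), with 1 library per mouse. All 6 mice therefore carry the Tg-SwDI transgene, a human amyloid precursor protein with the Swedish, Dutch and Iowa changes driven in neurons by the Thy1 promoter, and no mouse without the transgene was compared. Trem2 is a lipid-sensing receptor of microglia, and the comparison asks which transcripts differ without it in mice that deposit amyloid along brain vessels. The sources used here give neither age nor sex, and they do not describe the knockout allele.

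Somatostatin interneurons are inhibitory neurons that synapse mostly on the distal dendrites of excitatory cells, and they release GABA together with peptides. Peptides are cut from precursors, packed into dense-core granules and released during sustained firing, and they act on G protein-coupled receptors of nearby cells. Sst encodes the precursor of somatostatin, which lowers excitability and hormone release through the Sstr receptors. Cort encodes cortistatin, a relative of somatostatin that binds the same receptors. Npy encodes neuropeptide Y, which acts through the Npyr receptors. Crhbp encodes a secreted protein that binds corticotropin-releasing hormone (CRH) and keeps it from its receptors. Nos1 encodes neuronal nitric oxide synthase, whose gas product activates soluble guanylate cyclase in nearby cells and vessels, and Chodl encodes chondrolectin, a membrane lectin that marks the rare cortical interneurons with long-range axons.

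Somatostatin and cortistatin share the end of their precursors, from which the mature peptides are cut, and the coding bases for that end are shown first because they are what relates the 2 genes. The stretches are 42 bases of the GENCODE M21 transcripts of Sst (coding bases 304 to 345 of 348, chromosome 16) and Cort (coding bases 280 to 321 of 327, chromosome 4), with bases that match in both in capitals.
Sst: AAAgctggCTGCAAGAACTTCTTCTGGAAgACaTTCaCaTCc
Cort: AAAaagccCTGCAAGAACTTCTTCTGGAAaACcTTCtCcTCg
Of the 42 bases 32 matched (76.2%), with the longest run over the part that codes for the receptor-binding core of both peptides. The promoters of the 3 genes whose level was lower in every KO library follow, 250 bases before to 50 bases after the RefSeq start site on the gene's own strand (GRCm38.p6). Capitals mark the cAMP response element TGACGTCA, its shorter form TGACG (or CGTCA on the other strand) and the TATA box TATAAA, each searched on both strands.
Sst promoter, chr16:23890795-23891094, minus strand: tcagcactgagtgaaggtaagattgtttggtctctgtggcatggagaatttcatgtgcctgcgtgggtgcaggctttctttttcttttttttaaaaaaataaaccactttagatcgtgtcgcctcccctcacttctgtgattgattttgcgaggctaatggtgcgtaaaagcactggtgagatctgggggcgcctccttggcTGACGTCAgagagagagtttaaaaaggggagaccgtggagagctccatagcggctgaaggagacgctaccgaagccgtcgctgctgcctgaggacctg
Npy promoter, chr6:49822460-49822759, plus strand: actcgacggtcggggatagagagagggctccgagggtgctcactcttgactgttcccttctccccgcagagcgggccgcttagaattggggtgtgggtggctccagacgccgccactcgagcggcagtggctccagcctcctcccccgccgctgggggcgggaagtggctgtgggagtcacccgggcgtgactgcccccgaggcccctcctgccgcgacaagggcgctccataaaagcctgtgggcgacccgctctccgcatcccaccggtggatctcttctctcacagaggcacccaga
Crhbp promoter, chr13:95444782-95445081, minus strand: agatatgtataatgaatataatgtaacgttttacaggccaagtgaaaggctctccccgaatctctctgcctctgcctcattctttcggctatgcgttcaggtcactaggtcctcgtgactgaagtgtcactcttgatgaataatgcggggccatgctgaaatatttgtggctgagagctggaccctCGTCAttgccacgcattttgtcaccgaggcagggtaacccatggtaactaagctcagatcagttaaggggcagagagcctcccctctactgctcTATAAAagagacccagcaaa
The Sst promoter held the whole element TGACGTCA starting 48 bases before the start site, and the shorter form in it overlaps that element. TGACGTCA was present in 1.79% of 32851 mouse promoter windows of this length. The Crhbp window held CGTCA starting 64 bases before the start site and TATAAA in the bases after it, and the Cort and Nos1 windows held CGTCA. The shorter form was present in 20.8% of all windows and TATAAA, on either strand, in 13.6%. None of these letters were in the Npy and Chodl windows.

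The libraries held 39752 barcodes, 5220 to 8095 each where the study states 5700 to 8100 nuclei, and 33008 remained after filtering and removal of doublets. KO replicate 1 stood apart, with 51317961 UMIs in all against 11493087 to 17835287 in the other 5 libraries, and with counts from Cell Ranger 7.0.0 where the other 5 came from 6.1.2. In its Gad-positive nuclei Erbb4, a receptor gene of interneurons, measured 3334 CPM, against 129.4 and 119 CPM in the other KO libraries and 123, 111 and 129.5 CPM in WT libraries. CPM and thinned values are shares of a library's UMIs, so genes at such levels lower those of all other genes in that library, and the size of this for the 6 genes was not tested. Results that rest on KO replicate 1 are given with and without it. Any pair of libraries shared 8 to 18 cell barcodes, at most 0.285% of a library. Trem2 over all nuclei had 2.86, 14.45 and 8.19 CPM (UMIs per 1000000 UMIs) in KO replicates 1 to 3 and 30.2, 17.4 and 15.2 CPM in WT replicates 1 to 3, from 99 to 148 UMIs in KO libraries and 211 to 305 UMIs in WT libraries, so it was lower in every KO library. Counts at the 3′ end do not show whether the remaining RNA encodes a receptor. Gad-positive nuclei numbered 1639, 1373 and 1588 in KO libraries and 1594, 1307 and 1248 in WT libraries. Not all of them were cortical interneurons: 38.7%, 33.5% and 66.0% in KO libraries and 22.8%, 57.2% and 51.1% in WT libraries held at least 2 of 7 genes of striatal projection neurons.

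Sst (ENSMUSG00000004366, mm10 chr16:23889573-23890958, minus strand) had a lower level in every KO library than in any WT library, while the shares of nuclei that held it overlapped. Over all Gad-positive nuclei it measured 115, 98.55 and 150.2 CPM in KO replicates 1 to 3 and 263, 451 and 315 CPM in WT replicates 1 to 3. The highest KO library lay below the lowest WT library, and KO replicate 1 lay between the other 2 KO libraries. The mean was 121 ± 26.4 CPM in KO and 343 ± 97.0 CPM in WT (SD, n = 3 each), a log2 difference of -1.47 (SE 0.33) by edgeR and of -1.62 without KO replicate 1. In such sums fewer cells and less RNA per cell cannot be told apart.

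Nuclei with at least 1 Sst UMI made up 18.2%, 5.17% and 10.5% of Gad-positive nuclei in KO libraries and 8.22%, 14.8% and 10.8% in WT libraries. Exact 95% binomial intervals of single libraries ran from 4.06% to 6.48% in KO replicate 2, the lowest, and from 16.3% to 20.1% in KO replicate 1, the highest. The KO libraries were both the highest and the lowest of the 6, and the means were 11.3 ± 6.54% in KO and 11.3 ± 3.34% in WT (SD, n = 3 each). Without KO replicate 1 the KO mean was 7.84%. With any 1 library left out, KO minus WT ran from -3.45 to 3.06 percentage points. An expressing nucleus held on average 4.69, 4.49 and 4.76 Sst UMIs in KO libraries and 6.73, 8.55 and 8.37 in WT libraries. The groups did not overlap, although KO replicate 1 was the deepest library, with a median of 6592 UMIs per Gad-positive nucleus against 1659 to 3061.5 in the others. When every Gad-positive nucleus was thinned to 1000 UMIs, which left out 0.793% to 19.0% of nuclei per library, the mean was 1.64, 2.42 and 2.16 Sst UMIs per expressing nucleus in KO libraries and 3.12, 5.14 and 4.32 in WT libraries. The groups again did not overlap. The shares after thinning were 6.77%, 3.23% and 5.19% in KO libraries and 6.43%, 8.79% and 6.58% in WT libraries, with KO replicate 1 inside the range of the WT libraries.

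**Figure D1:**
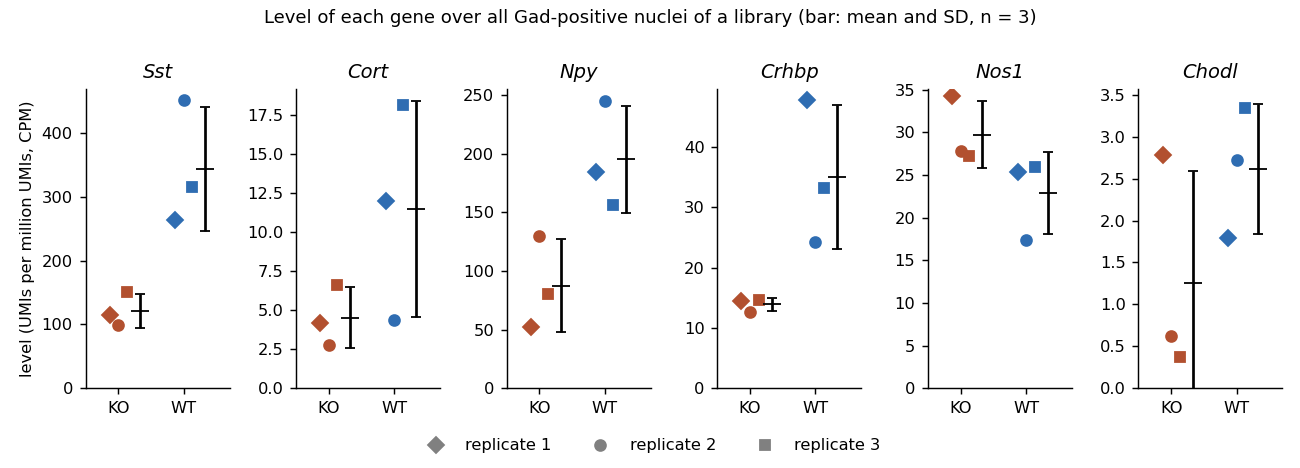
Level of each of the 6 genes in CPM (UMIs per 1000000 UMIs, linear axes from 0) summed over the Gad-positive nuclei of each library, with KO left and WT right in each panel; symbols are libraries, and the black mark and bar are the mean and SD over 3 libraries (bars cut at 0). Sst ran from 98.55 to 150.2 CPM in KO and from 263 to 451 CPM in WT, and Npy and Crhbp were likewise lower in every KO library.

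Most expressing nuclei held a single Sst UMI. Among Gad-positive nuclei of the KO libraries 304 held 1 Sst UMI, 108 held 2 to 4 and 124 held 5 or more, against 256, 70 and 134 in the WT libraries. The nuclei with 5 or more carried 76.4%, 72.4% and 76.4% of the Sst UMIs of Gad-positive nuclei in KO libraries and 86.3%, 88.6% and 88.6% in WT libraries. They made up 5.06%, 1.17% and 1.57% of Gad-positive nuclei in KO libraries and 2.13%, 3.90% and 3.93% in WT libraries, so KO replicate 1 was the highest of the 6 and the other 2 KO libraries the lowest. Within them the mean was 12.9, 14.4 and 24.3 Sst UMIs in KO libraries and 22.4, 28.8 and 20.4 in WT libraries, and the groups overlapped. The richest nucleus held 44, 35 and 163 Sst UMIs in KO libraries and 101, 239 and 117 in WT libraries.

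**Figure D2:**
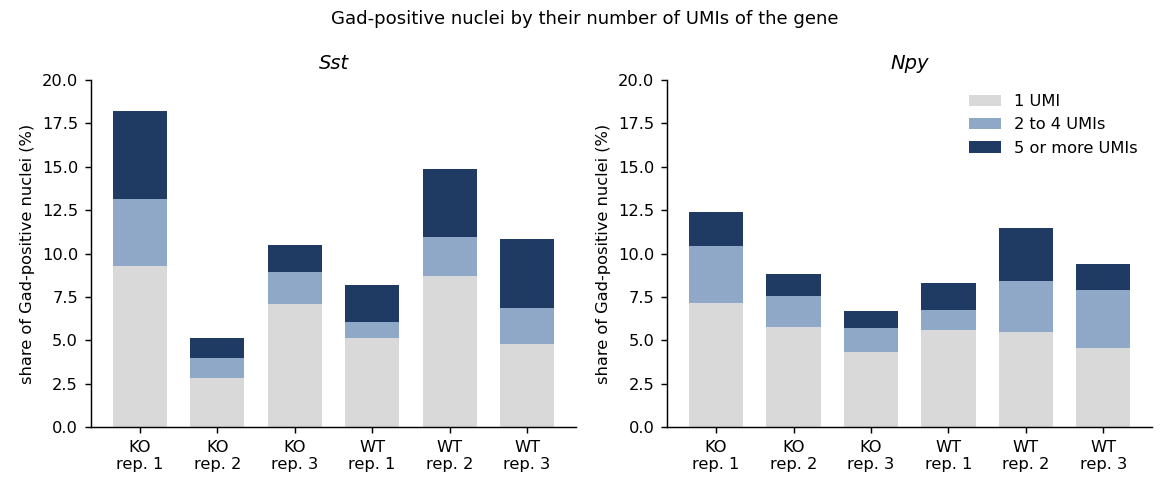
Stacked bars of the share of Gad-positive nuclei (percent) with 1, with 2 to 4 and with 5 or more UMIs of Sst (left) and of Npy (right), by library, KO libraries left of WT libraries. The darkest class of Sst was 5.06% in KO replicate 1, 1.17% and 1.57% in the other KO libraries and 2.13% to 3.93% in the WT libraries.

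Lhx6, a transcription factor gene kept on in interneurons of the medial ganglionic eminence, gave a narrower set of nuclei. Gad-positive nuclei with an Lhx6 UMI numbered 167, 69 and 78 in KO libraries and 49, 76 and 67 in WT libraries. In them Sst measured 411, 520.4 and 1262 CPM in KO libraries and 2188, 3119 and 1613 CPM in WT libraries, and the groups did not overlap. Of these nuclei 49.1%, 27.5% and 43.6% held Sst in KO libraries and 49.0%, 42.1% and 38.8% in WT libraries, and these shares overlapped. Over all nuclei of every kind Sst was again lower in each KO library, at a mean of 74.1 ± 33.2 CPM in KO and 178 ± 53.1 CPM in WT (SD, n = 3 each).

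Cort (ENSMUSG00000028971, mm10 chr4:149125034-149126763, minus strand), the relative of Sst, was sparse. It measured 4.18, 2.78 and 6.61 CPM in KO libraries and 12.0, 4.35 and 18.1 CPM in WT libraries, from 95 and 121 UMIs in all. WT replicate 2 lay among the KO libraries, so the groups overlapped. Cort was found in 2.38%, 0.656% and 1.32% of Gad-positive nuclei in KO libraries and in 1.82%, 0.918% and 2.96% in WT libraries. Expressing nuclei held on average 1.31, 1 and 1.67 Cort UMIs in KO libraries and 1.38, 1.33 and 1.76 in WT libraries, which overlapped. Scaled to their depth they had 136, 373 and 332 CPM in KO libraries and 455, 384 and 497 CPM in WT libraries, without overlap. Their median depth was 8775, 2691 and 4794 UMIs in KO libraries and 3098, 3616.5 and 3143 in WT libraries, and its part in this was not tested. The log2 difference in level was -1.30 (SE 0.57), and it was -0.76 without WT replicate 3.

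Npy (ENSMUSG00000029819, mm10 chr6:49822710-49829507, plus strand) was also lower in every KO library in level and in UMIs per expressing nucleus. It measured 51.9, 130.1 and 80.3 CPM in KO libraries and 184, 245 and 156 CPM in WT libraries. The groups did not overlap, and KO replicate 1 was the lowest of the 6. The mean was 87.4 ± 39.6 CPM in KO and 195 ± 45.5 CPM in WT (SD, n = 3 each), a log2 difference of -1.18 (SE 0.33) and of -1.03 without KO replicate 1. Expressing nuclei held on average 3.12, 3.48 and 4.01 Npy UMIs in KO libraries and 4.67, 6.01 and 4.79 in WT libraries, again without overlap. After thinning to 1000 UMIs those means were 1.55, 2.31 and 2.17 in KO libraries and 2.30, 3.72 and 2.80 in WT libraries, and KO replicate 2 then lay just above WT replicate 1. Thinned before the gate they were 1.74, 2.4 and 1.90 in KO libraries and 2.72, 4.75 and 2.59 in WT libraries, which did not overlap. Nuclei with 5 or more Npy UMIs made up 1.95%, 1.24% and 0.945% of Gad-positive nuclei in KO libraries and 1.51%, 3.06% and 1.44% in WT libraries, which overlapped. A single Npy UMI was held by 57.6%, 65.3% and 65.1% of expressing nuclei in KO libraries and 67.4%, 48% and 48.7% in WT libraries, which also overlapped. The share of Gad-positive nuclei with Npy was 12.4%, 8.81% and 6.68% in KO libraries and 8.28%, 11.5% and 9.38% in WT libraries, with the KO libraries at both ends of the order. The mean share was 9.29% in KO, 7.74% in KO without KO replicate 1, and 9.71% in WT.

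**Figure D3:**
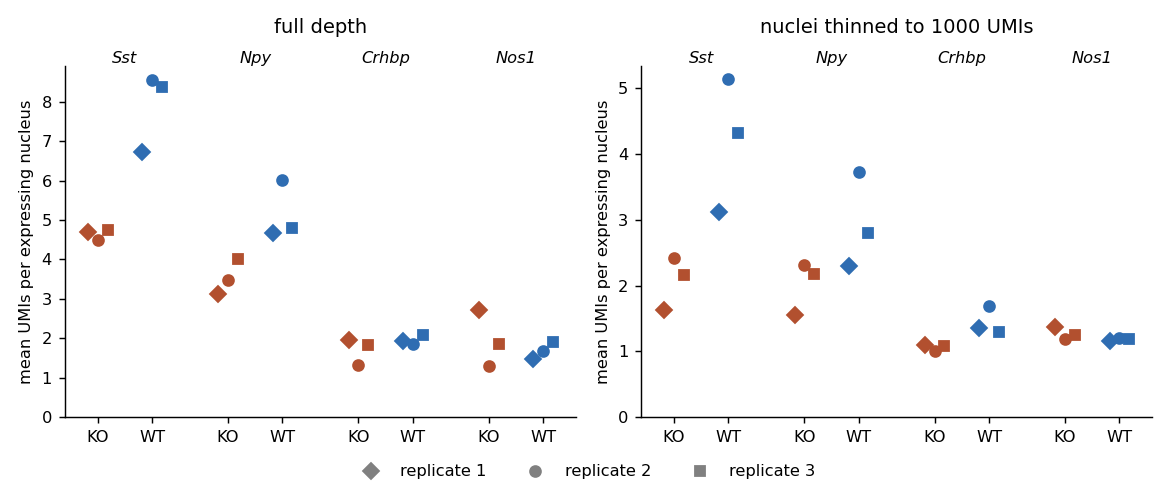
Mean UMIs of Sst, Npy, Crhbp and Nos1 per Gad-positive nucleus that holds the gene, by library, at full depth (left) and after thinning each nucleus to 1000 UMIs (right); KO is left of WT for each gene and symbols are libraries. Sst stayed lower in all 3 KO libraries in both panels, whereas the Npy values overlapped after this thinning.

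Crhbp (ENSMUSG00000021680, mm10 chr13:95431371-95444924, minus strand), the gene of the CRH-binding protein, was the most even of the 6 among KO libraries. It measured 14.5, 12.7 and 14.5 CPM in KO libraries and 47.8, 24.2 and 33.1 CPM in WT libraries. All 3 KO libraries lay below the lowest WT library. The mean was 13.9 ± 1.07 CPM in KO and 35.1 ± 11.9 CPM in WT (SD, n = 3 each), a log2 difference of -1.27 (SE 0.34) and of -1.51 without KO replicate 1. Expressing nuclei held on average 1.97, 1.32 and 1.83 Crhbp UMIs in KO libraries and 1.93, 1.85 and 2.09 in WT libraries, which overlapped. Scaled to their depth, expressing nuclei had 212, 477 and 344.5 CPM in KO libraries and 666, 535.5 and 534 CPM in WT libraries, without overlap. Their median depth was 8628, 2744 and 4580 UMIs in KO libraries and 2418, 3228.5 and 3700 in WT libraries, and its part in this was not tested. Shares were 5.49%, 2.26% and 2.64% of Gad-positive nuclei in KO libraries and 5.21%, 3.67% and 4.57% in WT libraries, and KO replicate 1 was the highest of the 6. The mean share was 3.47% in KO, 2.45% in KO without KO replicate 1, and 4.48% in WT. Thinned to 1000 UMIs the shares were 1.23%, 1.44% and 0.809% in KO libraries and 3.25%, 1.504% and 2.78% in WT libraries. There the highest KO library lay just below the lowest WT library. Thinned before the Gad gate was applied, they were 1.10%, 1.83% and 1.17% in KO libraries and 3.86%, 1.55% and 3.09% in WT libraries, which overlapped. The first thinned shares rest on 12 to 20 nuclei per KO library and 19 to 42 per WT library.

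Nos1 (ENSMUSG00000029361, mm10 chr5:117781032-117958840, plus strand), the nitric oxide synthase gene, lay the other way round. It was found in 9.33%, 5.03% and 4.85% of Gad-positive nuclei in KO libraries and in 3.64%, 2.91% and 3.93% in WT libraries. Every KO library was above every WT library. Its level was 34.2, 27.8 and 27.2 CPM in KO libraries and 25.4, 17.4 and 25.9 CPM in WT libraries, a log2 difference of 0.45 (SE 0.34) that was 0.11 (SE 0.25) without KO replicate 1. Nos1 has 166658 intron bases, where Sst has 665, Npy 6232, Crhbp 11754, Cort 1053 and Chodl 15295, and the 2 Cell Ranger versions are confounded with KO replicate 1. After thinning to 1000 UMIs the shares were 2.15%, 3.06% and 2.16% in KO libraries and 2.401%, 1.58% and 1.35% in WT libraries, which overlapped. At full depth expressing nuclei held on average 2.73, 1.30 and 1.87 Nos1 UMIs in KO libraries and 1.47, 1.68 and 1.90 in WT libraries, which overlapped. Nos1 overlaps Gm37028 on the same strand and Gm26995 on the other, so reads of these genes may not be separable.

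Chodl (ENSMUSG00000022860, mm10 chr16:78930948-78951733, plus strand), the chondrolectin gene, was found in 18, 2 and 2 Gad-positive nuclei of KO libraries and in 4, 9 and 11 of WT libraries. These were 1.10%, 0.146% and 0.126% of Gad-positive nuclei in KO libraries and 0.251%, 0.689% and 0.881% in WT libraries, and the level was 2.79, 0.618 and 0.378 CPM in KO libraries and 1.79, 2.72 and 3.34 CPM in WT libraries. KO replicate 1 had the highest share of the 6 and a level among those of the WT libraries, and the other 2 KO libraries lay below all WT libraries in both. Expressing nuclei held on average 1.89, 1 and 1 Chodl UMIs in KO libraries and 1.5, 1.11 and 1.09 in WT libraries, which overlapped. With 38 and 28 UMIs in all, Chodl did not pass the filter on low counts for the genotype comparison, which the other 5 genes passed.

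Across Gad-positive nuclei edgeR called 0 of 13196 genes between KO and WT at an adjusted p under 0.05 (percent called 0), with 495 at an unadjusted p under 0.05, and DESeq2 also called 0, with 612. In the plain order of the libraries 2.46% of the 13196 genes had every KO library below every WT library, as Sst, Npy and Crhbp did, and 8.37% had every KO library above every WT library, as Nos1 did. Since the genes were chosen with this contrast in view, nothing is read from these counts. Without KO replicate 1 edgeR called 0 of 13494 genes, with 348 at an unadjusted p under 0.05. Outside the 6 genes the smallest p-values belonged to Trem2 (-2.42), the desmosome gene Dsg2 (1.88), the class I histocompatibility gene H2-T22 (-1.15) and the ubiquitin ligase gene Rnf43 (1.78), with an edgeR adjusted p of 0.750 for each. Markers of other cells overlapped between the genotypes in Gad-positive nuclei: the 8 oligodendrocyte markers summed to 241 to 473 CPM in KO libraries and 243 to 469 CPM in WT libraries, and the 10 excitatory markers to 698 to 941 CPM in KO libraries and 596 to 753 CPM in WT libraries, with none at 0. The 20 listed markers of somatostatin interneurons summed to 3007, 1156 and 1149 CPM in KO libraries and 968, 1139 and 1123 CPM in WT libraries. Every KO library was thus above every WT library, KO replicates 2 and 3 only just. Of 18 such markers tested, 13 were higher and 5 lower in KO, with 0 called. Without KO replicate 1, 5 were higher and 13 lower, again with 0 called.

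Sst UMIs were also common in nuclei that should not make the peptide. In oligodendrocyte nuclei, gated on myelin genes, 7.33%, 2.70% and 7.69% held an Sst UMI in KO libraries and 5.58%, 9.86% and 5.25% in WT libraries, at a median depth of 832 to 1625 UMIs in KO libraries and 812 to 857 in WT libraries. At least 1 Sst UMI was found in 7.89%, 3.03% and 10.4% of excitatory nuclei in KO libraries and in 5.14%, 8.69% and 6.30% in WT libraries. Their median depth was 3287 to 8239 UMIs in KO libraries and 2634.5 to 2966.5 in WT libraries. In KO replicate 3 the Gad-positive share of 10.5% was within counting error of the 10.4% of its excitatory nuclei, so no expression can be read from that share, and in each library part of the Gad-positive share of Sst has to be read as background. The Sst level was 9.48, 13.2 and 32.8 CPM in excitatory nuclei of KO libraries and 17.3, 54.4 and 32.9 CPM in those of WT libraries. In oligodendrocyte nuclei it was 43.4, 28.4 and 89.0 CPM in KO libraries and 70.2, 123.6 and 62.4 CPM in WT libraries. Both gates lay below the Gad-positive nuclei of the same library, oligodendrocyte nuclei by least in KO replicate 3, at 89.0 CPM beside 150.2 CPM.

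Npy showed the same pattern, and the other genes less of it in oligodendrocyte nuclei. Oligodendrocyte nuclei held an Npy UMI in 3.57%, 3.04% and 2.91% in KO libraries and in 3.19%, 6.71% and 3.00% in WT libraries. Crhbp was found in 0.168% to 0.496% of oligodendrocyte nuclei in KO libraries and in 0 to 0.592% in WT libraries, against 2.26% or more of Gad-positive nuclei in every library. Cort was found in 0.0991% to 0.624% of them in KO libraries and in 0 to 0.197% in WT libraries. Nos1 was found in 0.337% to 1.04% of oligodendrocyte nuclei in KO libraries and 0.197% to 0.398% in WT libraries. It was found in 2.30% to 5.55% of excitatory nuclei in KO libraries and 1.58% to 2.12% in WT libraries. In KO replicate 3 the excitatory share of Nos1 was 4.19%, beside 4.85% of Gad-positive nuclei. Gad-negative nuclei held 47.6% to 56.4% of the Nos1 UMIs in KO libraries and 50.9% to 68.5% in WT libraries. Chodl was found in 0 of 1009 oligodendrocyte nuclei in KO replicate 1, which allows up to 0.297% of such nuclei to hold a UMI and does not limit the share that expresses it at this depth. It was found in 0.199% and 0.197% of oligodendrocyte nuclei in WT replicates 1 and 2. In KO replicate 3 it was found in 0.195% of excitatory nuclei, beside 0.126% of Gad-positive nuclei. Gad-negative nuclei held 26.1%, 77.8% and 83.3% of the Chodl UMIs in KO libraries and 33.3%, 52.4% and 57.1% in WT libraries. The part of background in the Chodl shares was not tested.

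**Figure D4:**
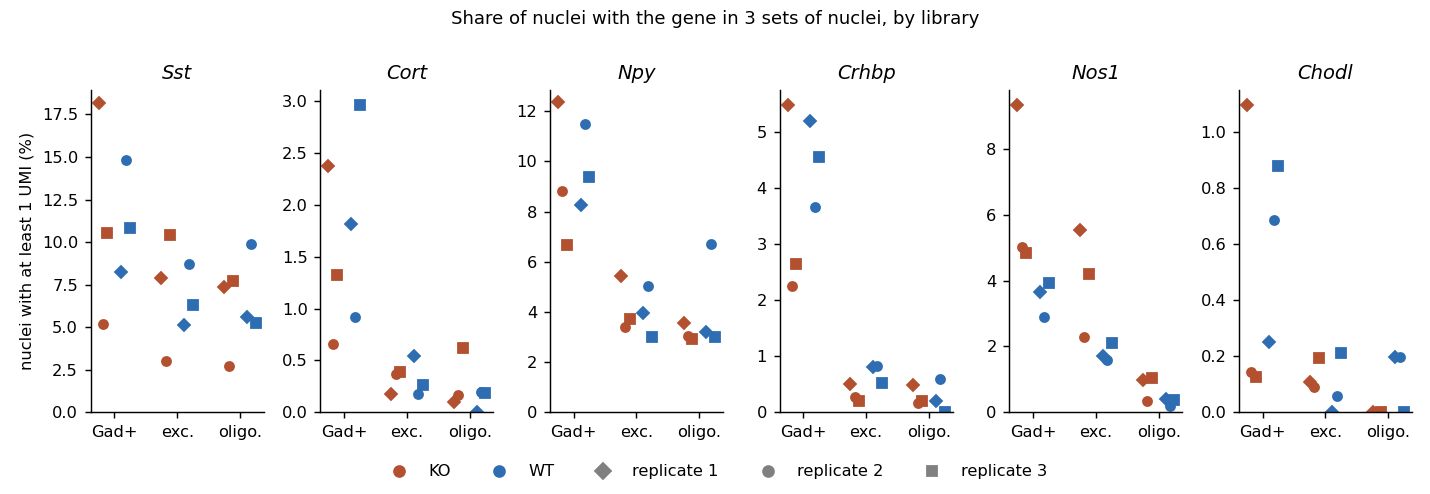
Share of nuclei (percent, linear axes from 0) with at least 1 UMI of each gene among Gad-positive (Gad+), excitatory (exc.) and oligodendrocyte (oligo.) nuclei, by library; colours are genotypes, with KO left of WT, and symbols are replicates. The Sst shares of oligodendrocyte nuclei, 2.70% to 9.86%, reach into those of Gad-positive nuclei, whereas Crhbp stayed at or below 0.592% in oligodendrocyte nuclei.

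The 6 genes shared nuclei. Within each library, Gad-positive nuclei with a gene were compared with Gad-positive nuclei without it. The test was edgeR on summed counts with the library as a block. The block removes the mean level of each library, but a fold that differs between genotypes still enters the pooled fold. The nuclei with a gene were usually deeper: for Sst the median was 7754.5, 3171 and 3471 UMIs in KO libraries and 2431, 2488.5 and 2944 in WT libraries, against 6253, 1886 and 3023 in Sst-negative nuclei of KO libraries and 1620, 2591 and 2588 in those of WT libraries. The part of depth in these calls was not tested. Genes named are the largest folds among called genes that went the same way in every library and averaged at least 50 CPM on the higher side.

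Sst-positive nuclei had higher levels of Npy, Crhbp, Nos1 and Cort than Sst-negative nuclei. Of 12408 genes 688 (5.54%) were called higher and 838 (6.75%) lower, and the 4 other genes of the set that were tested were all higher. Npy measured 130, 616 and 423 CPM in Sst-positive nuclei of KO libraries and 1019, 1066 and 1010 CPM in those of WT libraries, against 31.8, 93.6 and 32.3 CPM in Sst-negative nuclei of KO libraries and 83.4, 97.2 and 34.7 CPM in those of WT libraries. Npy was thus higher with Sst in 6 of 6 libraries, and the log2 fold was 3.31 (SE 0.17; edgeR adjusted p = 1.23e-15). Crhbp was higher by 2.98 (SE 0.15), Nos1 by 2.61 (SE 0.14) and Cort by 2.49 (SE 0.25; edgeR adjusted p = 9.55e-09). Other genes that led were Rbp4 (2.42), a retinol carrier, Lhx6 (2.36) and Elfn1 (2.29), a postsynaptic organiser of somatostatin cells. The genes that fell most were Vip (-1.30), the peptide of another interneuron class, the cardiac long RNA Mhrt (-1.18) and Lamp5 (-1.14), a marker of neurogliaform cells.

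Npy-positive nuclei showed Sst as their leading gene, at 4.57 on the log2 scale (SE 0.15; edgeR adjusted p = 1.05e-26). Of 12054 genes 693 (5.75%) were called higher and 887 (7.36%) lower, and 4 of 4 tested genes of the set were higher. Nos1 was higher by 2.88 (SE 0.16), Crhbp by 2.69 (SE 0.16), Cort by 2.53 (SE 0.25) and the phosphodiesterase gene Pde11a by 2.14 (SE 0.21), followed by Rbp4 (2.10) and Lhx6 (1.95). Meis1 (-1.48), a homeobox gene, and Tafa1 (-1.34), a secreted chemokine-like protein, were among the lowest. Caudal interneuron markers separated from those of the Sst comparison: 8 of 12 tested were higher and 1 lower with Npy, among them Id2 (1.27), Egfr (1.08) and Lamp5 (0.67), whereas 1 of 12 was higher and 7 lower with Sst. The difference between the 2 comparisons was not tested.

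Crhbp-positive nuclei were led by Cort (3.79, SE 0.30; edgeR adjusted p = 2.74e-13), Sst (3.58, SE 0.14), the oxygenase-like gene Moxd1 (3.46, SE 0.22) and Npy (2.89, SE 0.13). Of 11510 genes 760 (6.60%) were called higher and 1318 (11.5%) lower, and 4 of 4 tested genes of the set were higher, Nos1 least (1.74, SE 0.23). Without nuclei that met the striatal gate the log2 fold of Nos1 was 0.45, with edgeR adjusted p = 0.521. Moxd1 measured 188, 34.9 and 85.0 CPM in Crhbp-positive nuclei of KO libraries and 58.3, 54.2 and 139 CPM in those of WT libraries, against 14.6, 12.4 and 5.72 CPM in Crhbp-negative nuclei of KO libraries and 4.83, 6.55 and 7.42 CPM in those of WT libraries. Vip was the lowest (-4.43, SE 0.27), followed by the transcription factor genes Ebf1 (-4.32) and Zfhx4 (-3.53). Markers of Pvalb interneurons were also called, 6 of 10 higher and 2 lower, with Pvalb itself higher by 1.73 (SE 0.25).

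Cort-positive nuclei could be compared in 5 libraries, since KO replicate 2 held 9 of them. Sst (3.09, SE 0.14), Crhbp (3.07, SE 0.22) and Npy (2.60, SE 0.15) were called higher and Nos1 was not (0.14, SE 0.37; edgeR adjusted p = 0.921). Of 11269 genes 838 were called (7.44%), 256 higher (2.27%) and 582 lower (5.16%), and 3 of 4 tested genes of the set were called, all higher. Rbp4 led with 3.19, and Moxd1 (2.51) and Tmem132c (2.45) were also higher in 5 of 5 libraries. Tafa1 (-3.04), the synaptic vesicle gene Sv2b (-3.03) and the formin gene Inf2 (-2.99) were the lowest.

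Nos1-positive nuclei were led by Hhip (4.38, SE 0.35), an inhibitor of hedgehog signalling, and Chodl (3.86, SE 0.49, edgeR adjusted p = 3.95e-12). Neither gene was particular to Nos1, since both were also higher with Sst and with Npy in every library. In WT libraries Hhip measured 11.1, 40.9 and 20.1 CPM in Sst-positive nuclei and 0.67, 1.60 and 1.59 CPM in Sst-negative nuclei. Whether the rise of either gene was larger with Nos1 was not tested. Chodl measured 12.3, 6.39 and 6.41 CPM in Nos1-positive nuclei of KO libraries and 39.4, 29.1 and 35.7 CPM in those of WT libraries, against 1.57, 0.325 and 0 CPM in Nos1-negative nuclei of KO libraries and 0.311, 1.958 and 1.75 CPM in those of WT libraries. It was higher with Nos1 in 6 of 6 libraries. Of 11922 genes 133 (1.12%) were called higher and 169 (1.42%) lower, and 5 of 5 tested genes of the set were higher. Npy was at 3.50 (SE 0.08), Sst at 2.74 (SE 0.08), Cort at 1.26 (SE 0.37) and Crhbp at 1.04 (SE 0.22). These SEs are not the spread of the folds over single libraries. Sst measured 229, 300.5 and 814 CPM in Nos1-positive nuclei of KO libraries and 2125, 3679 and 2538 CPM in those of WT libraries. In Nos1-negative nuclei it measured 100, 88.3 and 109 CPM in KO libraries and 190, 358 and 205 CPM in WT libraries. The fold of Sst was thus smaller in each KO library than in each WT library, and this difference was not tested. Under DESeq2 Crhbp (adjusted p = 0.0775) and Cort (adjusted p = 0.573) were no longer called. Without nuclei of the striatal gate Crhbp was at 0.41 (edgeR adjusted p = 0.854), and without WT replicate 1 at 0.74 (edgeR adjusted p = 0.121). Cort was at 0.60 without WT replicate 3 (edgeR adjusted p = 0.833) and at 1.27 without KO replicate 3 (edgeR adjusted p = 0.0991). Tacr1, the substance P receptor, was higher by 2.57 (SE 0.22), Lhx6 by 1.53 (SE 0.20) and the collagen-like gene Col25a1 by 1.41 (SE 0.11). Neat1 (-2.38), a nuclear long RNA, was the lowest, followed by Mhrt (-1.35) and Syndig1l (-1.13).

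**Figure D5:**
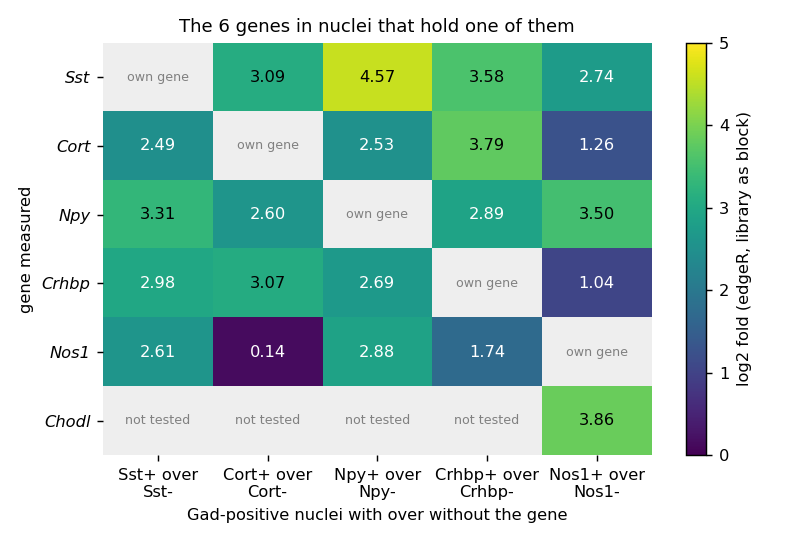
Log2 fold (edgeR, library as a block) of each of the 6 genes (rows) in Gad-positive nuclei that hold the gene named in the column over those that do not; grey cells are the column's own gene or genes not tested. Nos1 was 0.14 in Cort-positive nuclei and 1.74 to 2.88 in the Sst, Npy and Crhbp columns, and Chodl was tested only with Nos1, at 3.86.

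Pairs of these genes were also counted nucleus by nucleus. Of 436 Gad-positive nuclei with at least 2 Sst UMIs, 230 held Npy (52.8%), 142 Crhbp (32.6%), 72 Nos1 (16.5%), 48 Cort (11.01%) and 23 Chodl (5.28%). Npy was found in 38.9% to 71.9% of these nuclei across the 6 libraries, against 5.63% to 8.73% of nuclei with no Sst UMI. Of 35 nuclei with at least 2 Cort UMIs 21 held Crhbp, 21 held Sst and 0 held Chodl. Of 115 nuclei with at least 2 Nos1 UMIs 58 held Sst, 52 held Npy and 16 held Chodl. All 46 Gad-positive nuclei with Chodl were looked at together: 25 held Sst, 23 Npy, 18 Nos1 and 17 all 3 of these, of which 5, 1 and 2 came from KO libraries and 3, 2 and 4 from WT libraries. No fit was made for Chodl, which reached 10 nuclei in KO replicate 1 and WT replicate 3 alone.

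The receptors and ligands that these products meet were weakly counted in Gad-positive nuclei. Of 13 genes, 9 could be tested between genotypes, and 6 were higher and 3 lower in KO with 0 called. The median log2 difference was 0.05, equal to that of all genes (0.05). Sstr1, a somatostatin receptor, was called higher with Sst (1.66, SE 0.37; edgeR adjusted p = 0.00202), as was the CRH-family receptor Crhr2 (1.66, SE 0.37), while Crhr1 was lower (-0.89, SE 0.25; edgeR adjusted p = 0.0127). Sstr1 and Crhr2 were each higher in 5 of 6 libraries, and Crhr1 was higher in 2 of 6. Crhr2 was also higher with Npy (1.72, SE 0.39). Npy1r, a receptor of neuropeptide Y, was lower with Crhbp (-2.15, SE 0.41; edgeR adjusted p = 0.000101).

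Of 12 genes of nitric oxide signalling 1 was called higher and 5 lower with Sst, where 6.75% of all genes were called lower. With Npy 0 were higher and 5 lower, where 7.36% of all genes were called lower. Gucy1a1 (-0.61, SE 0.12) and Gucy1b1 (-0.60, SE 0.13), subunits of the guanylate cyclase that binds nitric oxide, were lower with Sst. With Nos1 itself 1 of 12 was higher, the phosphodiesterase gene Pde1a (0.48, SE 0.13), and 1 lower, Gucy1b1 (-0.57, SE 0.17). Between KO and WT 0 of 12 were called in Gad-positive nuclei. Prkg1, the cGMP-dependent kinase, measured 870.5, 35.5 and 28.9 CPM in KO libraries and 59.5, 14.7 and 25.6 CPM in WT libraries, with KO replicate 1 alone far above the rest.

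Over all genes 5.54% were called higher with Sst, 5.75% with Npy, 6.60% with Crhbp, 2.27% with Cort and 1.12% with Nos1. The shares called lower were 6.75%, 7.36%, 11.5%, 5.16% and 1.42%, in the same order. Peptide processing genes were called higher more often than lower with Sst, Npy and Crhbp. With Sst 8 of 15 were called higher and 2 lower (median log2 0.27, against -0.01 over all genes), with Npy 6 higher and 1 lower, and with Crhbp 7 higher and 2 lower. Pam, which amidates peptides, was higher with Sst (0.999, SE 0.08; edgeR adjusted p = 3.30e-11) and with Nos1 (0.89, SE 0.10), and Vgf, a granule protein and peptide precursor, with Sst (1.06, SE 0.09). Pcsk2, a convertase that cuts prohormones, was lower with Sst (-0.60, SE 0.07) and with Npy (-0.61, SE 0.06). Activity-regulated genes were lower where called: with Sst 0 of 15 were higher and 2 lower, Homer1 (-0.44, SE 0.10) and Nptx2 (-1.08, SE 0.32), and with Npy 5 were lower. Markers of striatal projection neurons were all lower, 12 of 12 with Sst, with Npy, with Crhbp and with Cort. Markers of somatostatin interneurons were called higher in 15 of 18 tested with Sst and lower in 1, higher in 14 of 18 with Npy and lower in 2, and higher in 11 of 17 with Crhbp and lower in 1. With Cort 10 of 17 were higher and 3 lower, and with Nos1 5 of 17 were higher and 2 lower. Oligodendrocyte markers were called lower in 5 of 8 with Sst, and excitatory markers in 3 of 10, with 0 higher in either.

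Between KO and WT within Sst-positive nuclei edgeR called 0 of 7674 genes (percent called 0), with 505 at an unadjusted p under 0.05, and DESeq2 0, with 615. This set was defined by a gene chosen on its genotype level, and it takes in nuclei whose single Sst UMI may be background. Nuclei with 1 Sst UMI made up 51.0%, 54.9% and 67.7% of it in KO libraries and 62.6%, 58.8% and 44.4% in WT libraries, and their part in the values that follow was not tested. As a description, Npy differed by a log2 of -1.46, Crhbp by -1.47, Cort by -1.68 and Nos1 by 0.20. Without KO replicate 1 the differences were -1.14, -1.70, -1.49 and -0.01, so the sign of Nos1 turned. Crhbp measured 50.6, 71.0 and 43.0 CPM in Sst-positive nuclei of KO libraries and 214, 92.6 and 168 CPM in those of WT libraries, without overlap. In this set 3.15% of genes had every KO library below every WT library and 6.42% every KO library above. The smallest p-values belonged to Lypd6 (2.22, SE 0.50), a modulator of nicotinic receptors, Rcan3 (1.699), Gid4 (1.97), Resp18 (-1.33) and Zfp2 (1.75), with an edgeR adjusted p of 0.677 for each. Resp18, a granule protein of endocrine cells, measured 71.0, 62.1 and 106 CPM in KO libraries and 172, 201.1 and 252.5 CPM in WT libraries.

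Some other granule genes lay the same way in Sst-positive nuclei without passing the test, and Ptprn2 lay the other way. Vgf measured 103, 71.0 and 232 CPM in KO libraries and 317, 379 and 384 CPM in WT libraries, and Chga 86.9, 66.5 and 118 CPM in KO libraries and 136, 222.5 and 217 CPM in WT libraries. Every KO library was below every WT library for both, with log2 differences of -1.40 (SE 0.42) and -1.01 (SE 0.36) and an edgeR adjusted p of 0.677 for each. Ptprn2 measured 904.5, 115 and 121 CPM in KO libraries and 97.2, 96.1 and 101 CPM in WT libraries. Each KO library was above every WT library for Ptprn2. The sums over the 15 listed genes overlapped, at 3144 to 4563 CPM in KO libraries and 4260 to 4433 CPM in WT libraries. Over all Gad-positive nuclei Vgf was also lower in every KO library, at 63.5, 59.9 and 137 CPM against 181, 175 and 166 CPM in WT libraries. Chga overlapped there, at 65.5, 56.2 and 100.1 CPM in KO libraries and 83.1, 138 and 131 CPM in WT libraries. Scg2 overlapped too, at 145, 190 and 404 CPM in KO libraries and 590, 347 and 457 CPM in WT libraries. Of 14 granule and processing genes tested in Sst-positive nuclei, 4 were higher and 10 lower, with 0 called and a median log2 of -0.24, against 0.05 over all genes. Without KO replicate 1 they were 2 higher and 12 lower, with 0 called and a median of -0.40. Activity-regulated genes had 3 of 6 tested on either side and 0 called.

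The Gad-positive share of all nuclei, which the choice of the genes did not use, was 22.0%, 29.9% and 35.9% in KO libraries and 30.9%, 23.6% and 21.4% in WT libraries. The means were 29.3 ± 6.97% in KO and 25.3 ± 4.94% in WT (SD, n = 3 each), a difference of 3.97 percentage points (exact permutation test, two-sided, p = 0.6, where the smallest p that 3 against 3 allows is 0.1). A p under 0.05 was thus out of reach of this test. With at least 2 Gad1 and Gad2 UMIs required, the means were 15.95 ± 3.07% in KO and 10.1 ± 2.41% in WT, with p = 0.1, the smallest p allowed by the exact test. Lhx6-positive nuclei made up 10.2%, 5.03% and 4.91% of Gad-positive nuclei in KO libraries and 3.07%, 5.82% and 5.37% in WT libraries, with KO replicate 1 the highest.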

How the data were processed

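Single nuclei of 6 mouse frontal lobes were counted with droplet-based 3′ chemistry, per the labels' protocols. The deposited files hold raw UMI counts per gene and barcode, made by the authors with Cell Ranger (6.1.2 in 5 libraries and 7.0.0 in KO replicate 1, per the file headers) on mm10, per the submitters' processing notes, which also name Seurat. The sources used here do not say if intronic reads were counted. Replicates are numbered in accession order, which pairs no mice.

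The 34281 barcodes kept had 200 or more genes and no more than 5% mitochondrial UMIs, and 1273 doublets called by Scrublet in scanpy 1.11.5 (expected rate 6%) were removed. Doublets that the caller missed may remain. Gad-positive nuclei held at least 1 UMI of Gad1 or Gad2. Counts were summed per library, or per library and side, and tested with edgeR 4.0.16 in R 4.3.3 (glmQLFit, glmQLFTest, TMM, filterByExpr, two-sided, Benjamini-Hochberg over all genes tested, threshold 0.05). DESeq2 1.42.0 was an alternative. Sides came from the same mouse, so the library was a block, and a library needed 10 nuclei with the gene. CPM in the text are UMIs per 1000000 without TMM. SEs were derived from the edgeR test statistic, not from the folds of single libraries. The fits were tested on simulated data. UMI counts in nuclei are subject to counting error, and limits from a count of 0 (3 counts) cover counting error only. Shares were also computed after thinning nuclei to 1000 UMIs with seed 1.

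The 6 genes, the gene lists and the tests were chosen with earlier results of these data known. Genes named beyond the 6 follow a rule: the 6 highest and 3 lowest called folds in a side comparison (unnamed-locus, mitochondrial and sex-linked genes left out), the 5 smallest p in a genotype comparison without calls, and up to 4 genes of a list with the smallest p. The rule selects further list genes that the text leaves out. Promoters came from RefSeq (GRCm38.p6, all 6 matched) and coding bases and gene positions from GENCODE M21. Other tools were scipy 1.17.1, numpy 2.4.6, matplotlib 3.10.9, pandas 2.3.3 and Python 3.11.15.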

Additional observations from a re-analysis of the deposited data

How the results depend on the processing

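Under other settings 95 of the genotype differences in share, 83 in UMIs per expressing nucleus and 76 in CPM moved by less than the spread between replicates, and 7, 17 and 2 moved by more. The genotype comparisons called 0 genes under every alternative, leave-one-out included (0 to 0), except that without a low count filter 252 genes were called in Sst-positive nuclei. No paired analysis of the genotypes was possible because the replicate numbers follow accession order. In the comparisons of nuclei with and without a gene the library is the block: without that replicate block edgeR called 20 genes for Sst, 15 for Npy, 306 for Crhbp, 6 for Cort and 1 for Nos1, against 1526, 1580, 2078, 838 and 302 with it, and for Nos1 0 of 5 tested genes of the set were then called. DESeq2 called 877, 912, 1331, 323 and 63. Without nuclei of the striatal gate the counts were 431, 491, 899, 238 and 101, and without a low count filter Nos1 had 647. Leaving out each library gave 1127 to 1337 genes for Sst, 1211 to 1462 for Npy, 1631 to 2030 for Crhbp, 589 to 812 for Cort and 128 to 308 for Nos1, whose lowest count was without KO replicate 1. In the Nos1 comparison the call of Cort was lost without KO replicate 3 and without WT replicate 3, and that of Crhbp without WT replicate 1. The Gad-positive share differed by 0.656 to 7.61 percentage points with a library left out. The comparison of Chodl-positive nuclei was not run, because it needs 3 libraries with 10 nuclei. Counts of 1 UMI limit Cort and Chodl most, with 95 and 38 UMIs in Gad-positive nuclei of KO libraries and 121 and 28 in those of WT libraries. Expressing nuclei with at least 5 UMIs and all nuclei without a gate were tried after seeing the data, as were positive nuclei with at least 5 UMIs, which gave 2165 genes for Sst and 1299 for Npy.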

Other observations

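The Gad gate did not catch every nucleus rich in Sst. Nuclei with no Gad1 or Gad2 UMI but at least 5 Sst UMIs numbered 7, 20 and 15 in KO libraries and 9, 29 and 41 in WT libraries, and the groups overlapped. In all they were 42 in KO libraries and 79 in WT libraries, beside 124 in KO libraries and 134 in WT libraries that were Gad-positive. Of these Gad-negative nuclei 23 in KO libraries and 43 in WT libraries held Slc32a1, the vesicular GABA transporter. Lhx6 was found in 24 of them in KO libraries and 28 in WT libraries, and Npy in 31 in KO libraries and 64 in WT libraries. Slc17a7, the glutamate transporter of excitatory cells, was found in 4 in KO libraries and 8 in WT libraries.

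Npy is also made by olfactory ensheathing glia. Of the Gad-negative nuclei with at least 5 Npy UMIs, 22 of 23 in KO libraries and 40 of 43 in WT libraries also held Sst, and 1 in KO libraries and 1 in WT libraries held Frzb, a marker of those glia. Vip in Sst-positive nuclei measured 88.5, 4.43 and 3.07 CPM in KO libraries and 122, 51.6 and 15.6 CPM in WT libraries. KO replicate 1 lay inside the range of the WT libraries. Without it the log2 difference was -4.19 (SE 0.88; edgeR adjusted p = 0.709).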
